A study of Mus musculus with 38 samples.

Results

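Carbonic anhydrases and acid exporters were followed as 9 named genes among the 55487 genes counted: the carbonic anhydrases Car2, Car9, Car12, Car13 and Car5b, the monocarboxylate transporters Slc16a1 (MCT1) and Slc16a3 (MCT4), their membrane chaperone Bsg (basigin), and the sodium-bicarbonate cotransporter Slc4a7 (NBCn1). The members were chosen by name, and all 9 were found by their Ensembl identifiers. RNA was sequenced from 38 mouse libraries. BV2 is a microglial line made immortal by a retrovirus, and the GL261 glioma cells stably carried the plasmid pEGFP-N1. The macrophages were grown from bone marrow (BMDM) of WT genotype and were used as primary cells. Whether the replicates of a group came from separate cultures or animals is given for only some libraries, as biological replicates, so p-values otherwise measure the spread between these samples, which may be technical.

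Normoxia was 21% oxygen and hypoxia under 0.1%, each for 16 h. Cultures called the first experiment here held BV2, GL261 or BMDM alone, or BV2 or BMDM in contact with GL261. Contact was at 2 glioma cells to each BV2 and 1 to each BMDM. Counts of these BMDM were deposited separately from those of BV2 and GL261, and the labels do not say that they shared a batch. The partner of the co-cultured GL261 libraries was not given in the sources used here, and BV2, counted in the same table, is assumed as the partner wherever an expected amount of partner RNA is given. BV2 medium held 2% and BMDM medium 10% fetal bovine serum, so that medium and cell type cannot be told apart between these cells. In the second experiment BV2 and BMDM were grown alone with the solvent dimethyl sulfoxide (DMSO) at each oxygen level, or in hypoxia with 10 nM panobinostat, an inhibitor of histone deacetylases. Of the 18 groups, 16 had 2 libraries and the normoxic and hypoxic BMDM co-cultures had 3.

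Cells that run on glycolysis must dispose of lactate and protons. MCT1 and MCT4 carry lactate together with a proton across the plasma membrane and need basigin to reach it, while carbonic anhydrases interconvert carbon dioxide and bicarbonate and so move acid between compartments: Car9 and Car12 act at the outer cell surface, Car2 and Car13 in the cytosol and Car5b in mitochondria. NBCn1 brings bicarbonate into the cell. Car9 and Slc16a3 are textbook targets of the hypoxia-inducible factor HIF-1, which binds DNA at a short core, ACGTG or GCGTG.

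In the GENCODE annotation of the mouse genome (GRCm38), Car2 (ENSMUSG00000027562) and Car13 (ENSMUSG00000027555) lie on chromosome 3 at 14886273 to 14900770 and 14641727 to 14663002, plus strand, and Slc16a1 (ENSMUSG00000032902) on the same chromosome at 104638668 to 104658462. Car9 (ENSMUSG00000028463) lies on chromosome 4 at 43506966 to 43513729, Car12 (ENSMUSG00000032373) on chromosome 9 at 66713686 to 66766845, and Car5b (ENSMUSG00000031373) on the minus strand of chromosome X at 163976822 to 164027997. Slc16a3 (ENSMUSG00000025161) lies on chromosome 11 at 120948480 to 120960868, Slc4a7 (ENSMUSG00000021733) on chromosome 14 at 14702279 to 14799940, and Bsg (ENSMUSG00000023175) on chromosome 10 at 79704491 to 79711969.

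The regions just before the RefSeq starts (GRCm38.p6) of 4 members whose hypoxia responses differ are shown, with ACGTG or GCGTG on either strand in capitals. RefSeq entries were matched for 6 of the 9 members. For Slc16a3 and Car9, sequence that GENCODE places in an exon is left out or limited to 30 bases around a core.
Slc16a3, chr11:120948817-120949052, plus strand: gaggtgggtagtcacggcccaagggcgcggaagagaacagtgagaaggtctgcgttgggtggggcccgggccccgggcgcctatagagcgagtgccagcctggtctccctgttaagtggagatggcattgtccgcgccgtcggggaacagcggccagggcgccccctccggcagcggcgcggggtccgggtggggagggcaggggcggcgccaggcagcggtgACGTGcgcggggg
Slc16a1, chr3:104638414-104638663, plus strand: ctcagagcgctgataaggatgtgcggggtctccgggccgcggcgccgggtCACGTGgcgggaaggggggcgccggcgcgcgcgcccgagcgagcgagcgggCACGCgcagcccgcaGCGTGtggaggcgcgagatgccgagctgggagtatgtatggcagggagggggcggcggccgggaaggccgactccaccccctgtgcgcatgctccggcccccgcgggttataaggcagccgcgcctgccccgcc
Car12, chr9:66713436-66713685, plus strand: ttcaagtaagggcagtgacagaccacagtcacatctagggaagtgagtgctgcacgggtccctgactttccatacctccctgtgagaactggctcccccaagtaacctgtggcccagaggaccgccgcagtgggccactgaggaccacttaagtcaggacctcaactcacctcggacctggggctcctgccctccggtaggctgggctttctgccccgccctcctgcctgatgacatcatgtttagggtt
Car9, chr4:43506996-43507025, plus strand, 30 bases around its core: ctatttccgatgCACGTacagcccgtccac

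Within the 250 bases before the start, Car9 held 1 match (ACGTG on the minus strand, at -18 to -14), Slc16a3 held 2 (ACGTG, at -27 to -23 and at -14 to -10, the second outside the stretch shown), Slc16a1 held 4 and Car12 none. The palindrome CACGTG in Slc16a1 counts as a match on each strand, and these overlap. Over 32841 RefSeq promoters of that length, 38.6% held at least 1 of the cores and 16.6% held ACGTG. A match is a description of the letters: Slc16a1, with the most matches of the 4, fell in hypoxic BV2, and Slc16a3 rose there.

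Libraries held 9634700 to 27238933 counts, so 3 counts, the least taken as above background, correspond to 0.110 to 0.311 CPM, a gene's counts scaled to the depth of its library. Levels given here are CPM scaled by edgeR's TMM factors within the fit of each cell type, and levels set beside each other across cell types come from separate fits. Macrophage and microglial markers were present in all BV2 and BMDM groups, with 10 of 10 above 3 counts in every library. They summed to 2298 to 3405 CPM in BV2 alone and 4.68 to 12.4 CPM in GL261 alone, where Itgam and Aif1 were at 0. BMDM of the second experiment stood apart: 6 fibroblast and stromal markers summed to 2673.5 to 23237 CPM there, against 70.8 to 595 CPM in BMDM of the first. RNA of the co-culture partner made up 0.758% (SD 0.273, n = 2) of normoxic and 2.20% (SD 0.178, n = 2) of hypoxic co-cultured BV2 libraries, 0.771% (SD 0.204, n = 2) and 0.241% (SD 0.0371, n = 2) of the GL261 libraries, and 2.40% (SD 1.20, n = 3) and 3.60% (SD 2.17, n = 3) of the BMDM libraries. How the cells of a co-culture were separated was not given in the sources used here. In bulk RNA, fewer cells of a type and less RNA per cell cannot be told apart.

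**Figure D1:**
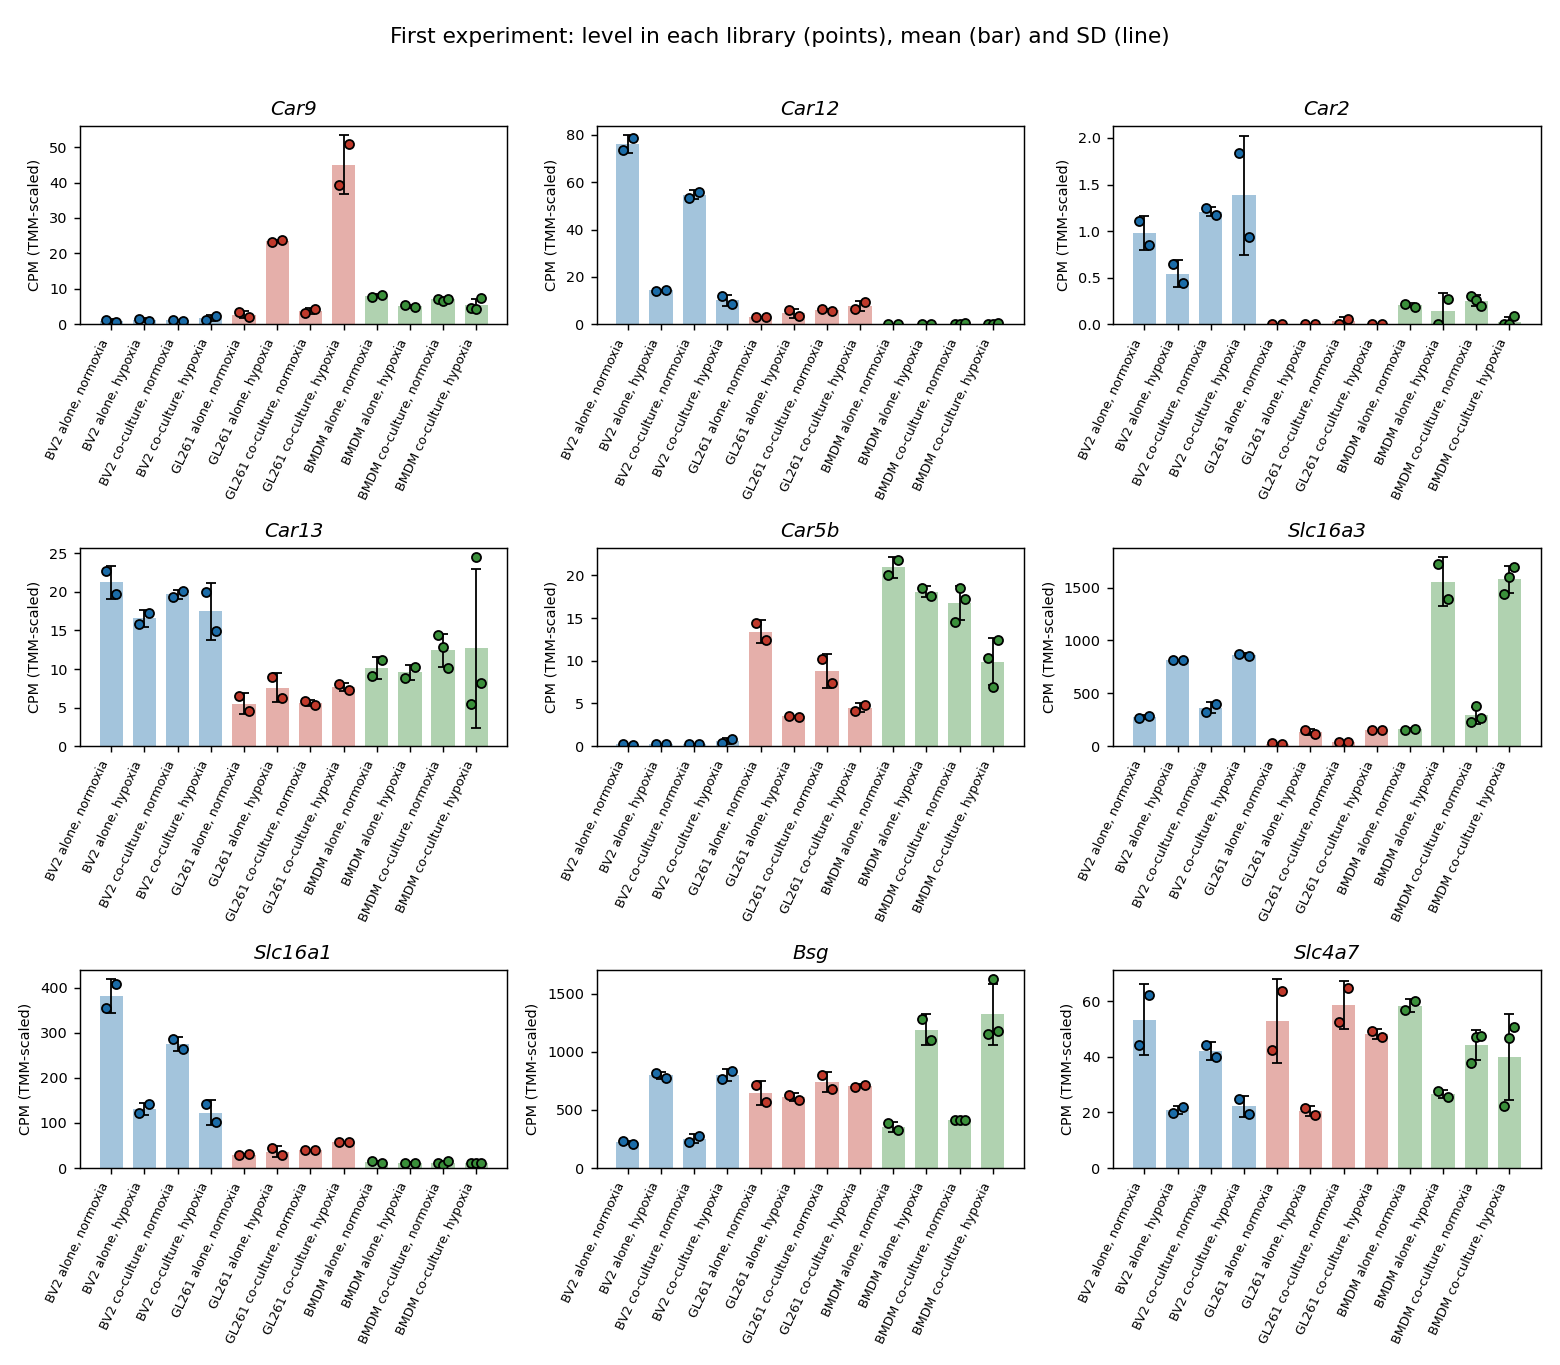
Level of each of the 9 genes in the first experiment, in CPM on a linear axis from 0. Points are libraries, bars group means and lines SD, with BV2 in blue, GL261 in red and BMDM in green. Car9 reaches 39.2 and 50.9 CPM in hypoxic co-cultured GL261, and Slc16a3 1390 CPM or more in each hypoxic BMDM library.

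The acid-base genes of BV2 cells grown alone moved in opposite directions in hypoxia. Slc16a3 and Bsg rose, and Car12, Slc16a1 and Slc4a7 fell. The remaining 3 tested members did not pass the test, and Car5b was too low to test. Thus 5 of 8 tested members were called at an adjusted p under 0.05 by edgeR's quasi-likelihood test, where 61.9% of all 14432 genes tested were called, so the share of members is near the background. The median log2 change of the 8 tested members was -0.60, beside 0.00 over all genes.

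Slc16a3, the low-affinity exporter of glycolytic cells, stood at 264 and 287 CPM in normoxic and 815 and 819 CPM in hypoxic BV2. Both hypoxic libraries lay above both normoxic ones, a log2 change of 1.57 (SE 0.12, adjusted p = 2.08e-08). Bsg, the chaperone that the MCTs share, went from 231 and 210 CPM to 816 and 776 CPM, a log2 change of 1.85 (SE 0.13, adjusted p = 5.39e-09).

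The other MCT moved the opposite way. Slc16a1 stood at 354 and 408 CPM in normoxia and at 122 and 141 CPM in hypoxia, with no overlap and a log2 change of -1.54 (SE 0.15, adjusted p = 1.55e-07). Car12, the surface anhydrase that BV2 carried most of, went from 73.6 and 78.8 CPM to 14.2 and 14.5 CPM, a log2 change of -2.41 (SE 0.14, adjusted p = 9.59e-10). Slc4a7 was measured at 44.3 and 62.2 CPM in normoxia and at 19.7 and 22.0 CPM in hypoxia, a log2 change of -1.35 (SE 0.16, adjusted p = 2.19e-06).

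Car9 was low in BV2 at both oxygen levels, with 15 to 31 reads a library, at 1.32 and 0.713 CPM in normoxia and 1.59 and 0.824 CPM in hypoxia. The groups overlap, and the log2 change of 0.23 had a 95% interval of -0.73 to 1.19 (adjusted p = 0.68). Car13 stood at 22.7 and 19.7 CPM against 15.8 and 17.3 CPM in hypoxia, a log2 change of -0.36 that missed the threshold by little (adjusted p = 0.051) and passed it without the second normoxic library (-0.46, adjusted p = 0.047). Car2 lay at or below 1.11 CPM in all 4 libraries.

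Within a library, transcripts can be set against each other per exon length. The ratio of Slc16a3 to Slc16a1 per length was 0.603 (SD 0.0236, n = 2) in normoxic BV2 and 5.20 (SD 0.531, n = 2) in hypoxic BV2. By this measure, normoxic BV2 held more Slc16a1 and hypoxic BV2 more Slc16a3. The length joins all annotated exons of a gene, so a ratio near 1 does not settle which transcript was more abundant.

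Co-cultured BV2 made the same 5 calls, in the same directions, between oxygen levels, where 67.3% of genes were called. The log2 changes were 1.25 for Slc16a3 (SE 0.12), 1.67 for Bsg (SE 0.13), -2.43 for Car12 (SE 0.15), -1.17 for Slc16a1 (SE 0.14) and -0.92 for Slc4a7 (SE 0.16). Their adjusted p-values ran from 1.20e-09 to 0.000121. Car12 went from 53.3 and 56.1 CPM to 11.8 and 8.46 CPM. Car9 in hypoxic co-cultured BV2 was 1.23 and 2.39 CPM, of which 23.6% to 41.0% is the amount expected from GL261 RNA. That amount was worked out from Car9 in hypoxic GL261 grown alone (23.3 and 23.7 CPM). Hypoxic co-cultured GL261 held more (39.2 and 50.9 CPM), so the expected part may be too low. Car13 was not called (-0.17), but was without the first hypoxic library (-0.48, adjusted p = 0.019).

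BV2 in the second experiment, given DMSO, differed between oxygen levels in 6 of 7 tested members, against 37.5% of 13294 genes. Slc16a1 went from 553 and 418 CPM to 73.4 and 120 CPM (log2 change -2.33, SE 0.28, adjusted p = 0.000388). Car12 went from 77.3 and 69.3 CPM to 3.07 and 9.79 CPM (-3.50, SE 0.42, adjusted p = 0.000426), with the hypoxic libraries far apart from each other. The changes of Slc16a3 (1.15, SE 0.22), Bsg (1.48, SE 0.22) and Slc4a7 (-2.19, SE 0.38) had the signs seen in the first experiment, with adjusted p-values from 0.00104 to 0.00334. Car2, a cytosolic anhydrase, rose from 0.670 and 0.209 CPM to 2.20 and 1.72 CPM (log2 change 2.15, SE 0.65, adjusted p = 0.026). That call rests on 9, 3, 28 and 23 reads and was lost without the second normoxic (1.56, adjusted p = 0.14) or the first hypoxic library (1.96, adjusted p = 0.11). In the first experiment Car2 was 1.11 and 0.847 CPM in normoxia and 0.649 and 0.439 CPM in hypoxia.

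In GL261 glioma cells the surface anhydrase Car9 and the exporter Slc16a3 rose in hypoxia, and the mitochondrial Car5b and Slc4a7 fell. These 4 of 8 tested members were called, beside 44.6% of all 15189 genes tested. The median log2 change of the 8 tested members was 0.39, beside -0.03 over all genes.

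Car9 was 3.43 and 2.08 CPM in normoxic and 23.3 and 23.7 CPM in hypoxic GL261 grown alone. The hypoxic pair lay far above the normoxic pair, with a log2 change of 3.08 (SE 0.24, adjusted p = 6.37e-06). Car9 overlaps the antisense gene Gm12454 over 214 exon bases, 9.29% of its exon length, and the strand setting of the counting was not given in the sources used here. Gm12454 itself was 2.86 and 2.29 CPM in normoxia and 1.41 and 2.19 CPM in hypoxia. The part of the overlap in the Car9 counts was not tested.

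Slc16a3 went from 26.3 and 22.5 CPM to 151 and 111 CPM in GL261 grown alone, a log2 change of 2.43 (SE 0.17, adjusted p = 2.48e-06). Its partner Bsg was high at both oxygen levels, at 716 and 568 CPM in normoxia and 632 and 583 CPM in hypoxia. The Bsg groups overlap, and the 95% interval of the log2 change ran from -0.42 to 0.26. Slc16a1 was 28.4 and 30.4 CPM against 45.1 and 28.0 CPM, also overlapping (log2 change 0.32, adjusted p = 0.19). Without the second hypoxic library, Slc16a1 (0.63, adjusted p = 0.0052), Car12 (0.93, adjusted p = 0.021) and Car13 (0.71, adjusted p = 0.041) passed the threshold.

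Car5b, a mitochondrial anhydrase, fell from 14.4 and 12.5 CPM to 3.55 and 3.43 CPM in GL261 grown alone (log2 change -1.94, SE 0.23, adjusted p = 6.75e-05). Slc4a7 fell from 42.3 and 63.5 CPM to 21.6 and 19.2 CPM (-1.37, SE 0.19, adjusted p = 0.000197). The ratio of Slc16a3 to Slc16a1 per length was 0.693 (SD 0.110, n = 2) in normoxia and 3.04 (SD 0.378, n = 2) in hypoxia.

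Co-cultured GL261 made 4 calls between oxygen levels, where 52.4% of genes were called. Car9 went from 3.25 and 4.30 CPM to 39.2 and 50.9 CPM, a log2 change of 3.57 (SE 0.24, adjusted p = 1.34e-06), and expected BV2 RNA was at most 0.288% of its level in any library. Slc16a3 went from 35.0 and 39.7 CPM to 152 and 151 CPM (2.02, SE 0.16, adjusted p = 3.78e-06). Car5b fell from 10.2 and 7.37 CPM to 4.16 and 4.87 CPM (-0.96, SE 0.23, adjusted p = 0.0046), and this call was lost without the first normoxic library (-0.70, adjusted p = 0.071). Slc16a1 rose from 39.3 and 39.7 CPM to 58.6 and 58.2 CPM (0.57, SE 0.19, adjusted p = 0.024). The Slc16a1 call was lost without any 1 of the 4 libraries, with adjusted p-values from 0.053 to 0.10. Slc4a7, at 52.3 and 64.5 CPM against 49.3 and 47.0 CPM, was not called here (-0.28, adjusted p = 0.22).

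Macrophages had Car12 too low to test in the first experiment. In BMDM grown alone, Slc16a3 and Bsg rose in hypoxia and Slc4a7 fell, 3 of 7 tested members, beside 23.9% of all 14806 genes tested. Slc16a3 went from 155 and 167 CPM to 1719 and 1390 CPM, a log2 change of 3.27 (SE 0.25, adjusted p = 2.26e-05). Bsg went from 384 and 324 CPM to 1285 and 1098 CPM (1.75, SE 0.20, adjusted p = 0.000257). Both genes were higher in each hypoxic library than in any normoxic one.

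Slc4a7 stood at 56.7 and 60.0 CPM in normoxic and 27.7 and 25.6 CPM in hypoxic BMDM (log2 change -1.13, SE 0.30, adjusted p = 0.021). That call was lost without any 1 of the 4 libraries, with adjusted p-values from 0.073 to 0.12. Slc16a1 was low and close between the groups, at 14.5 and 11.4 CPM against 12.2 and 11.2 CPM (log2 change -0.15, 95% interval -0.74 to 0.45). Car9 was 7.77 and 8.38 CPM in normoxia and 5.31 and 4.77 CPM in hypoxia, a difference opposite in sign to that in GL261 that did not pass the test (-0.68, adjusted p = 0.10). Gm12454 was 2.90 to 3.46 CPM in these libraries, nearer to Car9 than in hypoxic GL261. The ratio of Slc16a3 to Slc16a1 per length was 10.6 (SD 2.32, n = 2) in normoxic and 110.2 (SD 9.72, n = 2) in hypoxic BMDM.

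Co-cultured BMDM made 3 calls between oxygen levels, where 34.8% of genes were called. Slc16a3 went from 224, 383 and 270 CPM to 1441, 1604 and 1690 CPM (log2 change 2.43, SE 0.20, adjusted p = 1.78e-05). Bsg went from 416, 414 and 415 CPM to 1157, 1626 and 1182 CPM (1.67, SE 0.16, adjusted p = 4.96e-05). Car5b fell from 14.6, 18.5 and 17.3 CPM to 10.3, 6.92 and 12.5 CPM (-0.76, SE 0.21, adjusted p = 0.015), while in BMDM grown alone its change was -0.21 (adjusted p = 0.58).

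Some members varied within the hypoxic BMDM co-cultures. Slc4a7 was 22.3, 46.5 and 50.7 CPM there, across the whole range of the normoxic co-cultures (37.9, 47.0 and 47.5 CPM). Car13 was 5.42, 24.5 and 8.22 CPM, with the second library far above the others. Its log2 change of 0.04 (adjusted p = 0.95) became -0.88 (adjusted p = 0.021) without that library. Car9, at -0.36 (adjusted p = 0.26), passed the threshold without the third hypoxic library (-0.63, adjusted p = 0.049). The amount expected from GL261 RNA was 8.51% to 18.9% of Car9 in the hypoxic co-cultures, with 18.6% in the third. In the normoxic co-cultures it was 0.501% to 1.39%.

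BMDM with DMSO in the second experiment gave no member called between oxygen levels by edgeR without a replicate block, with 3 of 8 at an unadjusted p under 0.05 and 1 called by DESeq2. With the replicate number as a block, edgeR called 3: Bsg (1.81, adjusted p = 0.0235), Slc16a1 (0.99, adjusted p = 0.0428) and Car5b (-1.92, adjusted p = 0.0381). Without the block, 0.483% of all 14914 genes were called at the adjusted threshold. That share does not compare with the unadjusted count or with the 3 calls made with the block. Over the alternative settings, the block among them, 0 to 3259 of all genes were called, so the 3 calls are not read as a result about the members. Bsg was 746 and 425 CPM in normoxia and 2523 and 1557 CPM in hypoxia, without overlap (log2 change 1.80, SE 0.47, adjusted p = 0.10). Slc16a3 was 605 and 157 CPM against 1324 and 1065 CPM, also without overlap (1.65, SE 0.62, adjusted p = 0.175). Slc16a1 was 25.4 and 21.0 CPM against 52.6 and 40.4 CPM (1.00, SE 0.34, adjusted p = 0.15). In the same libraries the 6 stromal markers, 5 of them above 3 counts throughout, summed to 20453 to 23237 CPM in normoxia and 2673.5 to 13839 CPM in hypoxia. The 10 macrophage markers summed to 18452 to 27766 CPM and 3259.5 to 10798 CPM. The part of either in the members' values was not tested.

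**Figure D2:**
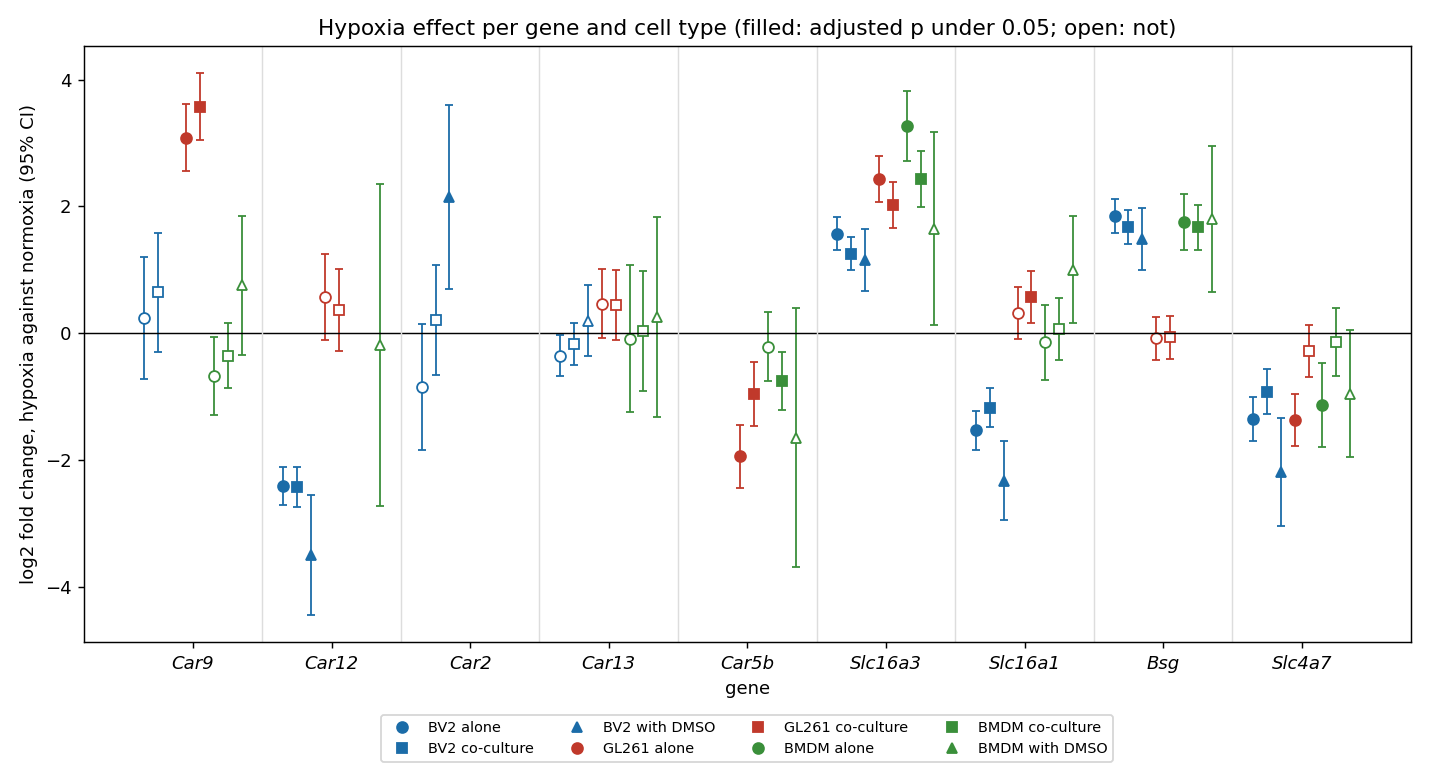
Log2 fold change between hypoxia and normoxia for each gene, with 95% intervals from edgeR. Colour gives the cell type and shape the culture, filled symbols passed an adjusted p under 0.05 and open ones did not, and genes too low to test in a cell type have no symbol. Slc16a3 lies above 0 in all 8 comparisons and is filled in 7, whereas Car9 is filled only in GL261 and Car12 only in BV2, in every culture of each.

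The size of the hypoxia response was compared between BV2 and GL261, each grown alone, with an interaction term in 1 fit of both cell types. Car2, at 0 in every GL261 library grown alone, gave no usable estimate. Of the 9 members entered, 6 differed, beside 37.4% of 16882 genes. The response of Car9 was lower in BV2 by 2.75 on the log2 scale (estimate -2.75, SE 0.52, adjusted p = 0.000354). Likewise the responses of Car12 (-2.89, SE 0.33), Slc16a1 (-1.76, SE 0.26) and Slc16a3 (-0.76, SE 0.21) were lower in BV2, with adjusted p-values from 2.04e-06 to 0.00684. Those of Bsg (2.03, SE 0.20, adjusted p = 4.87e-07) and Car5b (2.41, SE 0.71, adjusted p = 0.012) were higher. The Car5b difference sets 4 to 5 reads per BV2 library against GL261, and was lost without the second hypoxic BV2 library (2.30, adjusted p = 0.079). For Slc4a7, which fell in both lines, the difference was 0.12 with a 95% interval of -0.46 to 0.69. Car13 (-0.73, adjusted p = 0.056) passed the threshold without the first normoxic GL261 (-1.06), the second hypoxic GL261 (-1.06) or the second normoxic BV2 library (-0.91).

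Levels in normoxia were also compared between the lines. Between BV2 and GL261 grown alone, 8 of 9 members differed, beside 73.2% of genes. The count is therefore not read as a result about the members as a group. BV2 held more Slc16a1 (log2 difference 3.81, SE 0.20), Slc16a3 (3.61, SE 0.16), Car12 (4.69, SE 0.24) and Car13 (2.06, SE 0.21). GL261 held more Bsg (-1.42, SE 0.14), Car5b (-5.94, SE 0.37) and Car9 (-1.31, SE 0.37). The Car9 call was lost without the first normoxic GL261 library (-0.94, adjusted p = 0.068) or the second normoxic BV2 library (-0.96, adjusted p = 0.055). Car2 was at 0 in both normoxic GL261 libraries, and its mean of 0.976 CPM in BV2 was at least 5.74-fold higher than the floor of 3 counts per library. Slc4a7 did not pass the test (0.13, 95% interval -0.26 to 0.52).

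Between BV2 and BMDM of the second experiment, only the hypoxia response of Slc16a1 differed among 9 members, beside 0.664% of 15955 genes. Slc16a1 fell in BV2 with DMSO and had higher values in each hypoxic BMDM library, with a difference of -3.27 (SE 0.48, adjusted p = 0.026). The difference kept its sign without each library in turn but passed the threshold in only 1 of 8 such fits, the one without the second hypoxic BMDM library, and was otherwise at adjusted p-values of 0.053 to 0.12. Among these fits Car5b passed it in that one (5.07, adjusted p = 0.036), and with all libraries was at 3.72 (adjusted p = 0.184). The stromal transcripts described above for these BMDM apply here too.

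Co-culture was compared with culture alone at each oxygen level. In normoxic BV2, Car12 went from 73.6 and 78.8 CPM alone to 53.3 and 56.1 CPM in co-culture (log2 change -0.48, SE 0.13, adjusted p = 0.022). Slc16a1 went from 354 and 408 CPM to 287 and 265 CPM (-0.47, SE 0.14, adjusted p = 0.037), and Slc16a3 from 264 and 287 CPM to 326 and 401 CPM (0.40, SE 0.12, adjusted p = 0.036). The groups did not overlap for these 3 genes, which are 3 of 8 tested beside 14.9% of genes called. Each call was lost without 3 of the 4 libraries in turn, at adjusted p-values from 0.070 to 0.392, the exceptions being the first BV2 library grown alone for Car12 and Slc16a1 and the first co-cultured one for Slc16a3. With expected GL261 counts subtracted, Car12 (-0.44, adjusted p = 0.0505) and Slc16a1 (-0.43, adjusted p = 0.076) also missed it. Slc4a7 (-0.34, adjusted p = 0.15) passed without the first normoxic library grown alone (-0.58, adjusted p = 0.029).

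In hypoxic BV2, Car12 alone was called between co-culture and culture alone (14.2 and 14.5 CPM alone, 11.8 and 8.46 CPM in co-culture, log2 change -0.50, SE 0.15, adjusted p = 0.038), beside 15.7% of genes. It was lost without either BV2 library grown alone or the second co-cultured one (adjusted p 0.060 to 0.21), and with GL261 counts subtracted (-0.46, adjusted p = 0.075). Car2 was 0.649 and 0.439 CPM alone and 1.84 and 0.933 CPM in co-culture (1.35, SE 0.46, adjusted p = 0.059), and passed without the second co-cultured library (1.70, adjusted p = 0.037). Car2 was at 0 in hypoxic GL261, so none of its reads there is expected from the partner.

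GL261 in normoxia had no member called between co-culture and culture alone by edgeR or DESeq2, beside 0.514% of genes called by edgeR. In each tool 4 of 8 members were at an unadjusted p under 0.05, a looser measure that does not compare with that share. Slc16a3 had the lowest adjusted p, 0.19, at 26.3 and 22.5 CPM alone and 35.0 and 39.7 CPM in co-culture. In hypoxic GL261, 2 of 8 members were called with co-culture, both higher, beside 1.39% of genes. Slc4a7 was 21.6 and 19.2 CPM alone and 49.3 and 47.0 CPM in co-culture (log2 change 1.23, SE 0.19, adjusted p = 0.011), a call lost without the second library grown alone (1.17, adjusted p = 0.069). Car9 was 23.3 and 23.7 CPM alone and 39.2 and 50.9 CPM in co-culture (0.94, SE 0.20, adjusted p = 0.0498), and was lost without any 1 of the 4 libraries (adjusted p 0.053 to 0.26) and with BV2 counts subtracted (0.95, adjusted p = 0.052). Slc16a1, at 0.67 (adjusted p = 0.12), passed without the first hypoxic library grown alone (1.06, adjusted p = 0.0075).

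BMDM in normoxia had no member called with co-culture by edgeR, beside 1.64% of genes called. At an unadjusted p under 0.05 there was 1 member, which does not compare with that share, and DESeq2 called 1. That gene was Slc16a3, at 155 and 167 CPM alone and 224, 383 and 270 CPM in co-culture, without overlap (log2 change 0.86, SE 0.22, adjusted p = 0.082). It passed without the first co-cultured library (1.02, adjusted p = 0.037). In hypoxia, Car5b fell from 18.5 and 17.6 CPM alone to 10.3, 6.92 and 12.5 CPM (-0.87, SE 0.23, adjusted p = 0.045), beside 7.11% of genes. The Car5b call was lost without either library grown alone or the second co-cultured one (adjusted p 0.065 to 0.22), and with GL261 counts subtracted (-0.76, adjusted p = 0.11). Slc4a7, at 0.58 (adjusted p = 0.23), passed without the first hypoxic co-cultured library (0.88, adjusted p = 0.0065).

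Whether co-culture altered the hypoxia response was tested as an interaction in each cell type. No member passed with edgeR in BV2 (0 of 8 at an unadjusted p under 0.05), GL261 (2 of 8) or BMDM (2 of 7). The shares of all genes called at the adjusted threshold were 2.19%, 0.00% and 0.00%, which do not compare with the unadjusted counts. DESeq2 called 0, 1 and 0 members, the 1 being Slc4a7 in GL261 (1.10, adjusted p = 0.049, against 1.09 and 0.37 in edgeR).

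**Figure D3:**
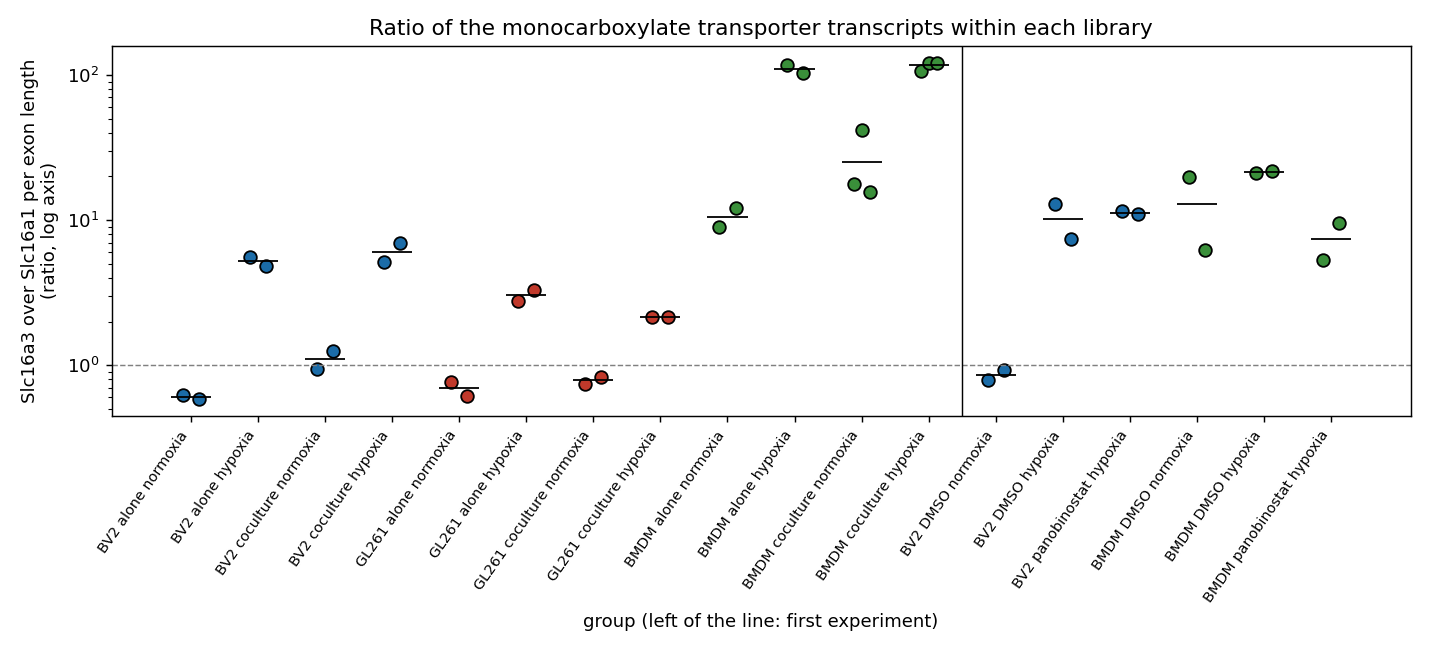
Ratio of Slc16a3 to Slc16a1 per exon length in each library, on a log axis. Points are libraries, short lines group means, and the dashed line marks a ratio of 1. Both lines grown alone lie below 1 in normoxia and above 2 in hypoxia, and all BMDM libraries lie above 5.

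Panobinostat in hypoxia gave no member called in either cell type. In BV2, 0 of 7 tested members were called by edgeR and by DESeq2, beside 14.6% of all genes called by edgeR. In each tool 1 member was at an unadjusted p under 0.05, which does not compare with that share. Slc16a1 was 73.4 and 120 CPM with DMSO and 62.8 and 64.6 CPM with panobinostat, without overlap (log2 change -0.61, 95% interval -1.20 to -0.01, adjusted p = 0.15). Slc16a3 was 1132 and 1078 CPM against 866 and 852 CPM (-0.36, 95% interval -0.85 to 0.12), and Bsg 953 and 958 CPM against 1163 and 1081 CPM (0.23, 95% interval -0.25 to 0.71). Car12 was 3.07 and 9.79 CPM against 8.37 and 9.23 CPM and passed without the second DMSO library (1.51, adjusted p = 0.015). Slc4a7, 8.10 and 21.7 CPM against 10.7 and 10.2 CPM, passed without the first (-1.06, adjusted p = 0.031). A p that misses the threshold does not show that levels with and without panobinostat were equal.

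In BMDM, 0 of 8 tested members were called by either tool, 0 at an unadjusted p under 0.05 in edgeR and 1 in DESeq2, and 0.00% of all genes were called by edgeR. Car12, near the floor in BMDM of the first experiment, was 0.143 and 1.33 CPM with DMSO and 3.10 and 4.43 CPM with panobinostat (log2 change 2.43, SE 1.02, adjusted p = 0.20). Slc16a3 was 1324 and 1065 CPM against 539 and 542 CPM (-1.14, SE 0.62, adjusted p = 0.30), without overlap. The macrophage markers summed to 3259.5 to 10798 CPM with DMSO and 1145 to 5206 CPM with panobinostat, and the stromal markers to 2673.5 to 13839 CPM and 8757.5 to 14357 CPM. Their part in these values was not tested. For none of 9 members did the panobinostat effect differ between BV2 and BMDM at the threshold in edgeR or DESeq2. The share of all genes called by edgeR was 0.0251%. At an unadjusted p under 0.05 there were 2 members in edgeR and 3 in DESeq2, which do not compare with that share.

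**Figure D4:**
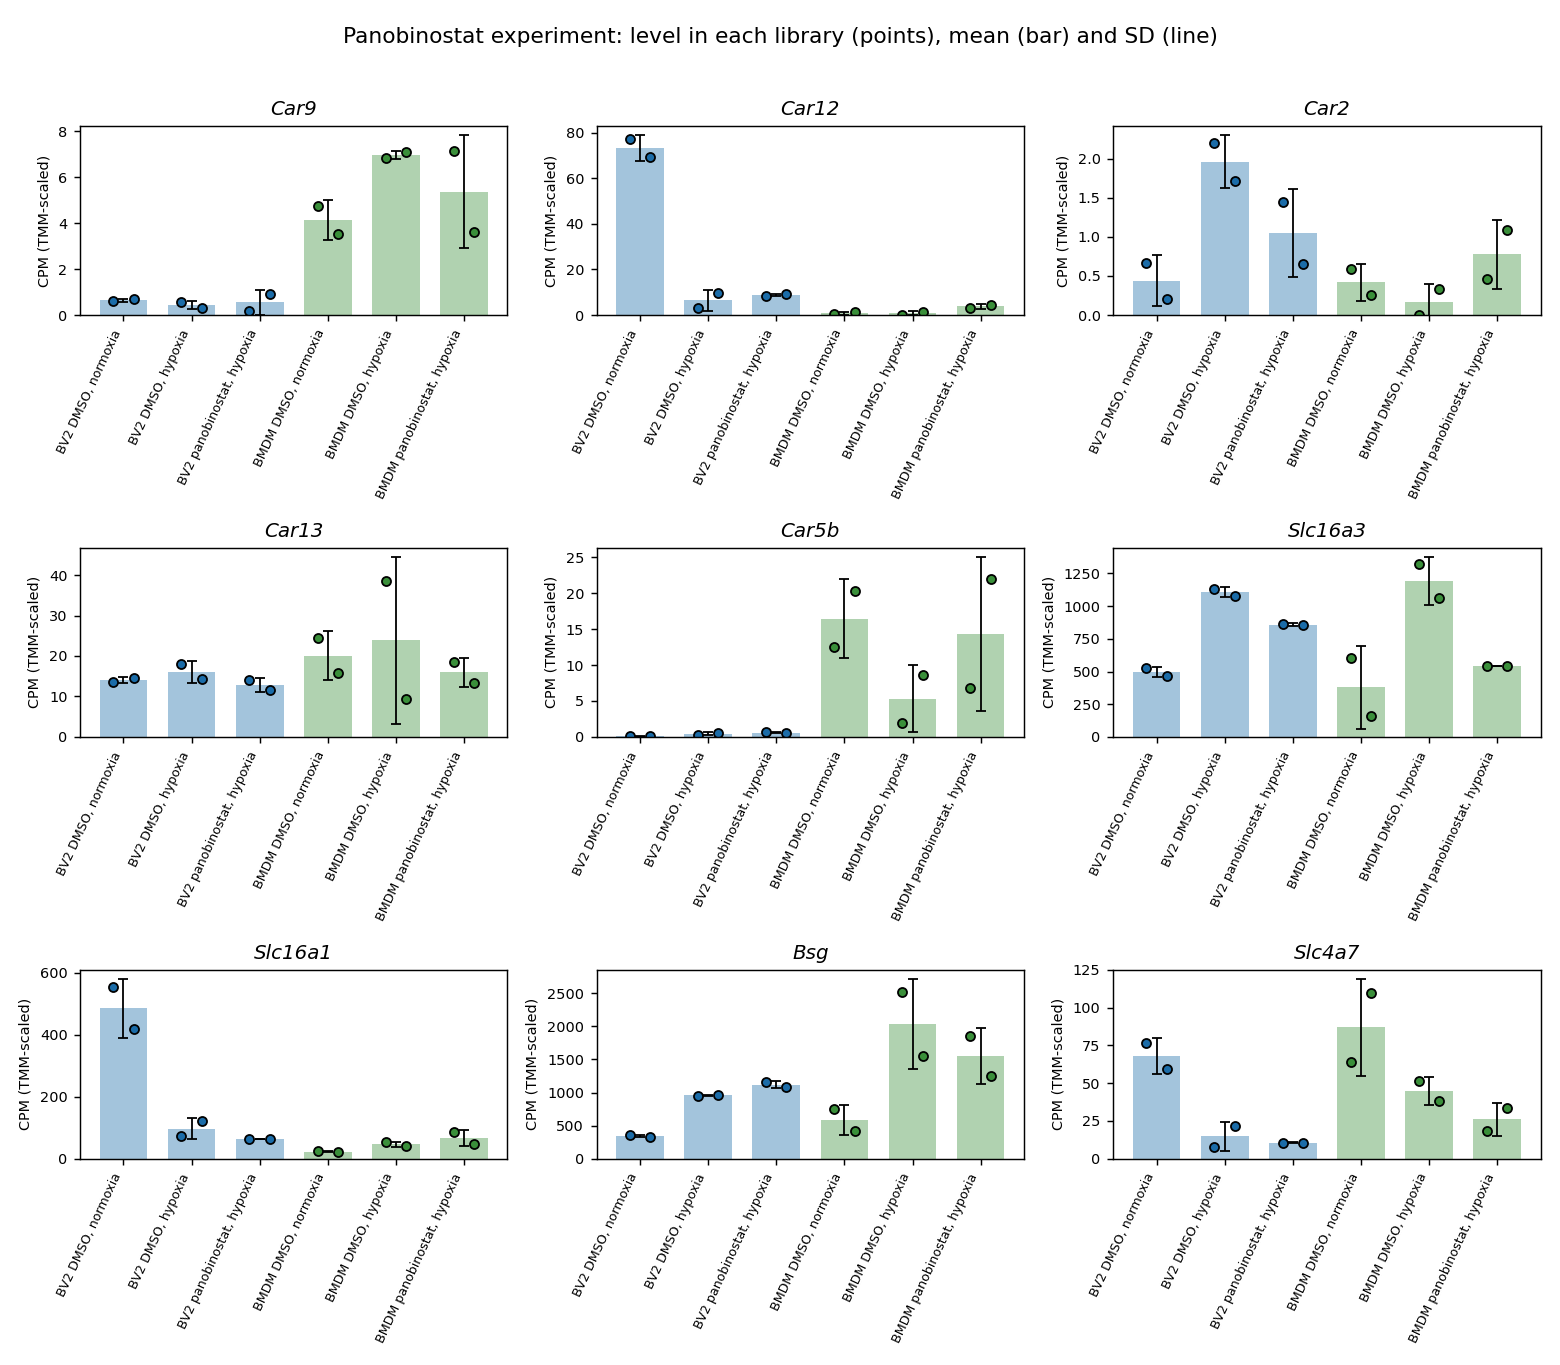
Level of each of the 9 genes in the second experiment, in CPM on a linear axis from 0. Points are libraries, bars group means and lines SD, with BV2 in blue and BMDM in green. The BMDM pairs are wider apart than the BV2 pairs for several genes, as for Car13 with DMSO in hypoxia (38.5 and 9.30 CPM).

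Ordered over all 18 groups, the highest Slc16a3 levels were in hypoxic BMDM, at 1578 CPM (SD 126, n = 3) in co-culture and 1554 CPM (SD 233, n = 2) alone, which overlap. The lowest was in normoxic GL261 at 24.4 CPM (SD 2.71, n = 2). Slc16a1 ran from 486 CPM (SD 95.4, n = 2) in normoxic BV2 with DMSO to 10.9 CPM (SD 3.42, n = 3) in normoxic co-cultured BMDM. Bsg was highest in hypoxic BMDM with DMSO at 2040 CPM (SD 683, n = 2) and lowest in normoxic BV2 at 221 CPM (SD 14.3, n = 2). Of the 17 pairs of neighbours in each order, the libraries overlapped in 7 for Slc16a3, 9 for Slc16a1, 12 for Bsg, Car9 and Car12, 10 for Car5b, 15 for Car13 and all 17 for Slc4a7 and Car2.

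For the 5 members tested in every cell type, the genes whose levels ran most alike over the 18 groups were found by Pearson correlation, after removing the mean of each cell type and experiment, among 10323 genes. Slc16a3 ran with Ak4 (r = 0.976), a mitochondrial adenylate kinase, and Ldha (r = 0.973), which makes the lactate that MCT4 exports. Bsg ran with Hilpda (r = 0.982), a lipid droplet protein, and Neil2 (r = 0.980), a DNA glycosylase. Slc16a1 ran with Rcl1 (r = 0.935) and Dus4l (r = 0.920), Slc4a7 with Nsmaf (r = 0.935) and Xrcc2 (r = 0.934), and Car13 less closely with Traf2 (r = 0.854) and Zfp830 (r = 0.848). These groups share the oxygen contrast and library depth, so the correlations describe the 18 groups and carry no test.

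Other genes of acid handling were taken from lists and set beside the members, in hypoxia against normoxia in cells grown alone. The counts of each list stand beside the 61.9% of all genes called in BV2, 44.6% in GL261 and 23.9% in BMDM, and no test compared the lists with each other or with other genes. Of the lactate production genes, 13 of 15 tested rose and none fell in BV2 (median log2 change 2.06), 10 of 17 rose and 3 fell in GL261 (0.85), and 10 of 18 rose and none fell in BMDM (1.60). The glucose transporter Slc2a1 rose in BV2 (3.84) and BMDM (3.99), and the phosphofructokinase Pfkp in BV2 (2.76). Hexokinase Hk2 rose in GL261 (2.65) and BMDM (3.47), and Pdk1, a pyruvate dehydrogenase kinase, in GL261 (3.41). In GL261 the lactate dehydrogenases Ldhb (-1.67) and Ldhd (-0.87) fell.

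Subunits of the V-ATPase, the proton pump of lysosomes, rose in 13 and fell in 2 of 20 tested in BV2 (median log2 change 0.41). They rose in 5 and fell in 5 of 19 in GL261 (0.10), and rose in 7 and fell in none of 20 in BMDM (0.31). The called counts, 15 of 20 in BV2, 10 of 19 in GL261 and 7 of 20 in BMDM, stand beside 61.9%, 44.6% and 23.9% of all genes and are not read as a result about the subunits as a group. Atp6v1a rose in BV2 (1.32) and BMDM (1.15), Atp6v0d2 in BV2 (1.67), Atp6v1c1 in BMDM (0.84), and Atp6v1b2 (0.90) and Atp6ap2 (0.47) in GL261. Atp6v0a2 (-1.13) and Atp6v0c (-0.39) fell in BV2, and Atp6v1g2 (-1.14) and Tcirg1 (-0.79) in GL261.

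Among the other acid-base transporters, 3 of 14 rose and 1 fell in BV2, 4 of 15 rose and 1 fell in GL261, and 2 of 16 rose and none fell in BMDM. These counts are smaller shares than the 61.9%, 44.6% and 23.9% of all genes called, and that difference was not tested. The anion exchanger Slc26a11 rose in BV2 (log2 change 2.14) and BMDM (1.23), and the anion exchanger Slc4a3 rose in BMDM (1.05). Embigin, Emb, the other MCT chaperone, fell in BV2 (-0.74) where basigin rose. In GL261, Slc9a9 (2.15) and the sodium-coupled monocarboxylate transporter Slc5a8 (1.04) rose and Slc9a5 (-0.59) fell. With panobinostat in hypoxic BV2, where 14.6% of all genes were called, 1 of 12 rose and 2 fell. The bicarbonate transporter Slc4a8 rose (2.18), and Slc9a8 (-1.25) and the proton channel Hvcn1 (-1.03) fell. In the lactate list the kinase Pdk3 rose with panobinostat (1.47) and phosphofructokinase Pfkl fell (-1.62), with 2 of 14 up and 1 down. Both panobinostat counts stand beside that 14.6% and are not read as results about the lists.

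Among acid-sensing receptors, Gpr65, a proton-sensing receptor, fell in hypoxic BV2 grown alone from 39.7 CPM (SD 0.827, n = 2) to 11.1 CPM (SD 0.764, n = 2). Gpr132 rose in hypoxic BMDM grown alone (log2 change 1.23).

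Only 4 of 11 other carbonic anhydrases could be tested in each cell type grown alone. In hypoxia, 1 rose and 1 fell in BV2 and in GL261, and none was called in BMDM. The rise in BV2 was of Car6 and is named after its value was seen: 0 CPM in both normoxic and 0.177 and 0.0549 CPM in the hypoxic libraries, at or near the floor, so no fold is given (adjusted p = 0.0367). Car6, a secreted anhydrase, fell in GL261 from 141.8 CPM (SD 3.93, n = 2) to 68.1 CPM (SD 3.03, n = 2), and Car8, a member of the family without enzyme activity, fell in BV2 (log2 change -0.35, adjusted p = 0.049).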

How the data were processed

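The deposited values were raw read counts per gene in 3 tables, which the authors made before deposit. Per the submitters' processing notes, Trimmomatic 0.36, STAR 2.6, Picard 2.17.1, SAMtools and HTSeq 0.9.1 were used with the mm10/GRCm38 genome. Strand setting and annotation were not given in the sources used here. Libraries were poly(A) selected after glyoxal fixation, with a stranded kit and paired reads, per the labels' protocols.

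Counts of each cell type within a table were fitted with edgeR 4.0.16 (quasi-likelihood F test, TMM scaling, filterByExpr with a minimum count of 10 and total of 15), 1 group term, Benjamini-Hochberg adjustment over all genes and a threshold of 0.05. Cell types were compared in joint fits. The fit was tested on simulated counts. The members and lists were chosen with earlier results of these data known. Named genes are the 9 members and, from each list, the 2 largest rises and 2 largest falls among called genes whose average log2 CPM was 2 or more. Some genes of the lists are not reported here. Symbols matched 55141 of 55487 identifiers. None of 22 replicate pairs was identical or within sampling noise. The partner's share of a library was estimated from partner genes with a difference of 100-fold or more. Expected amounts multiply that share by the gene's level in the partner grown alone at the same oxygen level. For co-cultured BMDM, that level came from the separately deposited GL261 libraries.

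In the BMDM co-cultures, same-numbered samples deviated together (correlations 0.455, 0.244 and 0.407 over 3 pairs, each highest with its own number), so the numbers were taken to pair them. The effects and p-values given for them in the Results come from the fit without the block. The block changed no member's call there. With it, the edgeR log2 changes between oxygen levels in co-culture were -0.79 for Car5b (adjusted p = 0.0108) and -0.11 for Car13 (adjusted p = 0.83). Alternatives were DESeq2 1.42.0, its size factors, other filters, 2 groups, a replicate block, partner counts subtracted and leaving out each library.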

Additional observations from a re-analysis of the deposited data

Results flagged for a closer look

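The response to hypoxia of 6 members differed between BV2 and GL261 cells grown alone, by a test of the difference itself (edgeR's quasi-likelihood test of the interaction, adjusted over all genes). On the log2 scale, BV2 minus GL261, the differences were -2.75 for Car9, -2.89 for Car12, -1.76 for Slc16a1, -0.76 for Slc16a3, 2.41 for Car5b and 2.03 for Bsg. Between BV2 and BMDM with DMSO, the response of Slc16a1 differed by -3.27, in BMDM libraries whose stromal markers are described above. The Car5b difference was lost without 1 BV2 library, and the last without 7 of the 8 libraries in turn. No group had the 4 libraries that a check for a single distant library needs.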

How the results depend on the processing

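The counts of members called are given here where another setting moved them by over 1.5 times. For co-culture against culture alone, the 3 calls in normoxic BV2 became 1 with a minimum average CPM of 5 and 1 with expected partner counts subtracted. The 1 call in hypoxic BV2 became 2 without a filter, 0 with that minimum, 0 with only the 2 groups compared and 0 with partner counts subtracted. In normoxic GL261, 0 became 1 without a filter, and in hypoxic GL261, 2 became 1 in each of the CPM, 2-group and partner settings. In normoxic BMDM, 0 became 1 with DESeq2 and 1 without a filter. In hypoxic BMDM, 1 became 2 without a filter and 0 with DESeq2 size factors, the CPM minimum, 2 groups or partner counts subtracted. The interaction of co-culture and hypoxia went from 0 to 1 in GL261 with DESeq2 and without a filter, and from 0 to 1 in BMDM without a filter. In BMDM with DMSO, 0 calls between oxygen levels became 1 with DESeq2, 5 without a filter and 3 with the replicate number as a block. The count over all genes in that comparison, 72, moved as well, to between 0 and 3259 over the alternative settings. Without a filter, panobinostat gave 2 calls in BMDM and 1 in its difference between cell types. The difference of BV2 and BMDM hypoxia responses went from 1 to 2 with DESeq2 and 3 without a filter.

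Leaving out 1 library at a time gave 0 to 3 calls in normoxic and 0 to 1 in hypoxic BV2 for co-culture, 0 to 2 in hypoxic GL261, 0 to 1 in normoxic BMDM and 0 to 2 in hypoxic BMDM. It gave 4 to 7 calls between oxygen levels in GL261 alone and 2 to 3 in co-culture, 0 to 1 with panobinostat in BV2, and 0 to 2 for the difference between BV2 and BMDM responses. In co-cultured BMDM between oxygen levels, the log2 change of Car13 ran from -0.88 to 0.40 (0.04 with all libraries). The causes were not tested.

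The replicate number as a block gave 3 calls in BMDM with DMSO: Bsg (1.81, adjusted p = 0.0235), Slc16a1 (0.99, adjusted p = 0.0428) and Car5b (-1.92, adjusted p = 0.0381). The share of all genes called with the block is not given here. It also brought past the threshold Car13 in BV2 alone between oxygen levels (-0.35, adjusted p = 0.0494) and in the BV2 to GL261 difference (-0.71, adjusted p = 0.0289), and Slc16a1 with co-culture in hypoxic GL261 (0.69, adjusted p = 0.0426). It changed no other member's call. Nothing in the labels says what a shared number marks. In the second experiment same-numbered samples deviated together (correlations of 0.336 to 0.593 in BMDM and 0.154 to 0.389 in BV2), but with 2 libraries a group both pairs give 1 and the same value, so the pairing was not settled there. The mean correlations of the first experiment were 0.033 (BV2), 0.180 (GL261) and 0.148 (BMDM).

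Of 51 called member results, 36 kept their call and direction in every alternative run, and none changed direction. Counts over all genes moved by over 1.5 times in 49 of 144 alternatives, in 15 of 23 comparisons: for co-culture in BV2, 2152 (1245 to 2519) in normoxia and 2266 (1461 to 3183) in hypoxia, with 316 (188 to 981) for the interaction. The same counts were 78 (11 to 361), 211 (20 to 737) and 0 (0 to 73) in GL261, and 243 (28 to 1062), 1053 (160 to 2141) and 0 (0 to 128) in BMDM. Between oxygen levels they were 3542 (3351 to 6289) in BMDM alone and 72 (0 to 3259) with DMSO, with panobinostat 1941 (1424 to 4025) in BV2 and 0 (0 to 2867) in BMDM, and for the differences between these cells 106 (97 to 1372) and 4 (3 to 613). Members with few reads, such as Car2 in GL261 (0 in each library grown alone) and Car5b in BV2 grown alone in the first experiment (4 to 5), are limited by depth.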

Other observations

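Car6, a secreted carbonic anhydrase chosen here after its values were seen, stood at 2.28, 2.44 and 6.65 CPM in normoxic co-cultured BMDM, where 1.90, 3.06 and 5.25 CPM were the amounts expected from GL261 RNA, and at 0.11 and 0 CPM in normoxic BMDM grown alone. In hypoxic co-cultured BMDM it was 2.81, 4.99 and 7.03 CPM, beside expected amounts of 1.13, 2.17 and 4.04 CPM. Its log2 change with co-culture was 3.64 in hypoxic BMDM (adjusted p = 0.0169 in edgeR). In normoxic BMDM the libraries grown alone lay below the floor of 3 counts, so no fold is given (adjusted p = 0.0136 in edgeR). Co-cultured BV2 also held Car6, at 1.45 and 1.07 CPM in normoxia and 3.73 and 4.96 CPM in hypoxia. The amounts expected there from GL261 RNA were 1.35 and 0.801 CPM, and 1.41 and 1.58 CPM. Car6 was called with co-culture in BV2 at both oxygen levels (adjusted p = 0.000256 and 6.79e-06 in edgeR). The part of partner RNA in these values was not tested.

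Outside co-culture, Car6 was 10.4 and 7.09 CPM in hypoxic BMDM with DMSO, 1.25 and 0.218 CPM with panobinostat, and 0.146 and 0.063 CPM in normoxic BMDM with DMSO. The normoxic libraries with DMSO lay below the floor of 3 counts, so no fold between oxygen levels is given there (adjusted p = 0.0650 in edgeR). In hypoxic BMDM of the first experiment Car6 was 0.436 and 0.345 CPM.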
